A study of Homo sapiens with 18 samples.

Results

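SCG2, PXDN, UNC5A, AP3B2 and SYNPO are 5 of the 26485 genes in a deposited table of normalized counts from a human pancreatic cancer cell line and its gemcitabine-resistant derivative. They were selected on measured values, because their normalized counts were higher in resistant cells given an siRNA against STIM1 than in resistant cells given a control siRNA, so that difference is described here and not tested. The rule set no threshold. All 5 genes passed the filter on low values (a mean of at least 10 over the 18 libraries, as did 13096 genes in all), and all 5 also passed it on the mean of the 12 libraries with control siRNA.

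The cells were L3.6pl (Par), a line from a pancreatic carcinoma, and a gemcitabine-resistant derivative of it (GemR), which per the labels was maintained in 64 nM gemcitabine. GemR cells received siRNA against STIM1 (siSTIM1) or control siRNA (siCont) for 48 h, and Par cells received siCont. For the last 3 h before harvest each was given 500 nM thapsigargin, which depletes endoplasmic reticulum calcium by blocking SERCA, or DMSO as vehicle. The 6 groups, GemR siSTIM1 with thapsigargin, GemR siSTIM1 with vehicle, GemR siCont with thapsigargin, GemR siCont with vehicle, Par siCont with thapsigargin and Par siCont with vehicle, held 3 libraries each. GemR is a single derivative line, the labels name a single siSTIM1 reagent, and no Par siSTIM1 group is part of the design, so loss of STIM1 and any other effect of that reagent cannot be told apart. Nothing in the labels says whether replicates came from separate cultures, so p-values measure only the spread between these libraries. In bulk RNA, fewer cells that express a gene and less RNA per cell cannot be told apart.

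SCG2 encodes secretogranin II, a granin packed into the dense-core granules of endocrine cells and neurons and cut there into peptides such as secretoneurin. PXDN encodes peroxidasin, a secreted peroxidase that crosslinks collagen IV in basement membranes, and UNC5A encodes a receptor for the guidance cue netrin-1. AP3B2 encodes the neuronal beta subunit of the AP-3 adaptor, which sorts cargo into synaptic and lysosome-related vesicles. SYNPO encodes synaptopodin, an actin-associated protein of kidney podocytes and of dendritic spines. STIM1 senses calcium in the endoplasmic reticulum and, on its loss, gates ORAI channels in the plasma membrane.

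In GENCODE 29 (GRCh38) SCG2 lies on the minus strand at chr2:223596940-223602503 and PXDN on the minus strand at chr2:1631887-1744852. UNC5A is on the plus strand at chr5:176810477-176880898 and SYNPO on the plus strand at chr5:150601080-150659220. AP3B2 is on the minus strand at chr15:82659281-82709914. All 5 are protein-coding genes. Among them only UNC5A shared exonic bases with another gene: 30 bases, 0.688% of its exon length, overlap HK3 on the opposite strand, whose mean was 1.57 normalized counts.

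The promoter sequences of the members are shown so that the letters at their starts can be compared. The common direction of the members in the siRNA contrast was set by the rule that chose them. RefSeq promoters (GRCh38.p14, from 250 bases before to 50 bases after each annotated start, 5′ to 3′ on the gene's strand) were matched for 4 of the 5 members, with a pair of starts for SYNPO, and the SCG2 promoter is not shown. Capitals mark matches to the motifs named after the sequences, other than GC boxes. PXDN lies at chr2:1744466-1744765, UNC5A at chr5:176810309-176810608, AP3B2 at chr15:82709826-82710125, and the SYNPO starts at chr5:150600826-150601125 and chr5:150640410-150640709.
PXDN: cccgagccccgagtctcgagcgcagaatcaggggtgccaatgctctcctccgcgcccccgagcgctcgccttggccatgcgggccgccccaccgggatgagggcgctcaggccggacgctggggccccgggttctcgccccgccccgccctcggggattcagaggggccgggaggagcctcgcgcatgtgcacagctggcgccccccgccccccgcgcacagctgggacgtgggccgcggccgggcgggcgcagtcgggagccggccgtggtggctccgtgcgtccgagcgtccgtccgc
UNC5A: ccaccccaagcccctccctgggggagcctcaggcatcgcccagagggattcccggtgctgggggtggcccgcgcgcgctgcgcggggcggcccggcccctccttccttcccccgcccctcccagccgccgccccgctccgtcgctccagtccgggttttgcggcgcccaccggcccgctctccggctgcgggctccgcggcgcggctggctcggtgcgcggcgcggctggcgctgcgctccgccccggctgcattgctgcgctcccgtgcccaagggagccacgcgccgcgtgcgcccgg
AP3B2: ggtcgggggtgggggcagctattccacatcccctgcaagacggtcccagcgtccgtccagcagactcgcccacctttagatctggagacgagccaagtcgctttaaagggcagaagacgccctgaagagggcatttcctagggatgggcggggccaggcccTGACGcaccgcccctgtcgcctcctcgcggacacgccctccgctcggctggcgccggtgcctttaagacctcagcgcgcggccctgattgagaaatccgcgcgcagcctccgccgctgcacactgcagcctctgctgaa
SYNPO start 1: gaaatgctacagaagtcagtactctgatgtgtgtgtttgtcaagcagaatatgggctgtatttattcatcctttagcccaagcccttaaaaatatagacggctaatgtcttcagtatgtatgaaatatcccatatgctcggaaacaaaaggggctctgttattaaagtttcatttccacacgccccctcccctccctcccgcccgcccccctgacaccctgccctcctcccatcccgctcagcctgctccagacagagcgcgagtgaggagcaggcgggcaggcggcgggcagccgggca
SYNPO start 2: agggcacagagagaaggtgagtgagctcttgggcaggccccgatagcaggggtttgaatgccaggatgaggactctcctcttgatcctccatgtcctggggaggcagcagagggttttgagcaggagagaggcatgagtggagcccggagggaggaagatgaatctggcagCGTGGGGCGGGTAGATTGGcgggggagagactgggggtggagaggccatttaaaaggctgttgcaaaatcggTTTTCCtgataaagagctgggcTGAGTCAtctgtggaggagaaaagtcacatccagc

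On both strands, these windows were searched for the cyclic AMP response element CRE (TGACGTCA, in 1.85% of all 35116 promoters of that length), the short CRE site (TGACG, 24.6%, also part of CRE and UPRE), AP-1 (TGANTCA, 7.71%) and the NFAT core (GGAAAA, 24.0%). The search also took in the endoplasmic reticulum stress element ERSE (0.077%), UPRE (TGACGTGG, 0.729%), the E-box (CACGTG, 7.26%) and the GC box (GGGCGG, 45.0%). No motif other than the GC box, which was in all 5 windows, was found in more than 1 of them. With positions counted from 0 at the first transcribed base, the AP3B2 window held a short CRE site at -89. Start 2 of SYNPO held an ERSE on the opposite strand at -79, overlapping a GC box, an NFAT core on the opposite strand at -7 and an AP-1 match at 15. The PXDN and UNC5A windows were 78.3% and 80.7% G and C, and the AP3B2 window 66.3%, against a median of 58.7% over all promoters (interquartile range 47.0% to 68.0%). The SYNPO windows had 53.7% and 56.7%. A match is a run of letters and shows no binding.

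Reads recovered from the normalized counts ranged from 8922439 to 16519239 per library. All 6 epithelial markers checked were expressed, with a summed normalized count of 77125 to 109242 in every library. The fibroblast marker DCN was at 0 throughout. The fibroblast markers together, mostly COL1A1, summed to 1017 to 1732 in GemR siSTIM1, 1004 to 1524 in GemR siCont and 2011 to 3185 in Par libraries. Endothelial markers, mostly PECAM1 and CDH5, summed to 114 to 176 in GemR siSTIM1, 212 to 258 in GemR siCont and 228 to 282 in Par. Immune markers, mostly CD68, summed to 72.2 to 124, 130 to 173 and 125 to 176 in the same order. The part of these markers in the results was not tested. Replicate 1 of GemR siCont with vehicle and replicate 1 of GemR siSTIM1 with thapsigargin stood apart in that their deviations from the group mean fell with exon length (Spearman's rho over 12419 genes -0.505 and -0.428, against -0.295 to 0.459 in the other libraries). Deviations within a group sum to 0, so these falls are tied to rises in the same groups (up to 0.459 and 0.321). Which libraries were atypical was not tested.

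STIM1, the siRNA target, had 272, 353 and 305 normalized counts in the 3 GemR siSTIM1 thapsigargin libraries and 390, 356 and 401 in the vehicle libraries. It had 6079, 6307 and 6174 in GemR siCont with thapsigargin and 4976, 6294 and 6401 with vehicle. In Par it had 423, 421 and 448 with thapsigargin and 444, 447 and 481 with vehicle. Each library stood on the side its label names, and the siSTIM1 libraries and the Par libraries both lay far below the GemR siCont libraries.

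SCG2 was the member with the largest difference. It had 637, 668 and 581 normalized counts in the GemR siSTIM1 libraries with thapsigargin, against 37.6, 44.0 and 38.6 in GemR siCont with thapsigargin. With vehicle it had 595, 642 and 561 in GemR siSTIM1, against 53.4, 42.9 and 48.3 in GemR siCont. No siSTIM1 library came near a siCont library: the log2 fold change was 3.94 ± 0.11 with thapsigargin (15.3-fold) and 3.61 ± 0.11 with vehicle (12.2-fold; ± is the standard error of the limma fit for log2 fold changes throughout). Of the 13096 tested genes, 0 had a larger positive log2 fold change in either treatment. In Par SCG2 had 76.5, 77.7 and 85.3 with thapsigargin and 58.9, 60.9 and 65.3 with vehicle, so that every Par library was above every GemR siCont library and below every siSTIM1 library.

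UNC5A had 524, 438 and 549 normalized counts in GemR siSTIM1 with thapsigargin and 58.3, 79.3 and 66.4 in GemR siCont with thapsigargin. With vehicle the values were 484, 469 and 576 in GemR siSTIM1 and 61.2, 87.6 and 42.6 in GemR siCont. Par libraries, at 68.0, 80.9 and 66.5 with thapsigargin and 47.7, 54.9 and 50.7 with vehicle, overlapped those of GemR siCont. The siSTIM1 minus siCont log2 fold change was 2.88 ± 0.19 with thapsigargin (7.34-fold) and 3.03 ± 0.19 with vehicle (8.17-fold), with 7 and 5 genes above it.

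AP3B2 had 285, 168 and 208 normalized counts in GemR siSTIM1 with thapsigargin, against 19.7, 15.9 and 21.4 in GemR siCont with thapsigargin. With vehicle it had 236, 179 and 227 in GemR siSTIM1, against 29.0, 23.6 and 22.7 in GemR siCont. The difference was 3.44 ± 0.20 on the log2 scale with thapsigargin (10.9-fold) and 3.04 ± 0.20 with vehicle (8.22-fold), with 1 and 3 genes above it. Par had 37.8, 30.2 and 44.7 with thapsigargin and 34.5, 37.1 and 32.2 with vehicle, and no Par library overlapped the GemR siCont libraries.

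SYNPO had 240, 196 and 215 normalized counts in GemR siSTIM1 with thapsigargin, and 19.7, 40.5 and 25.7 in GemR siCont with thapsigargin. With vehicle it had 224, 214 and 262 in GemR siSTIM1, and 26.7, 35.9 and 49.2 in GemR siCont. The siSTIM1 libraries were all above the siCont libraries, by 2.94 ± 0.27 on the log2 scale with thapsigargin (7.65-fold) and 2.65 ± 0.27 with vehicle (6.29-fold), with 5 and 9 genes above. In Par it had 43.4, 35.6 and 26.0 with thapsigargin and 13.2, 13.4 and 24.4 with vehicle, so that Par vehicle lay below GemR siCont vehicle in every library.

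PXDN was the lowest member and the one whose difference varied most with treatment. It had 40.5, 32.1 and 22.6 normalized counts in GemR siSTIM1 with thapsigargin, against 9.40, 11.4 and 6.43 in GemR siCont with thapsigargin. With vehicle it had 48.9, 63.0 and 77.5 in GemR siSTIM1, against 6.68, 5.25 and 5.68 in GemR siCont. The log2 fold change was 1.69 ± 0.32 with thapsigargin (3.23-fold, 72 genes above) and 3.20 ± 0.32 with vehicle (9.21-fold, 2 genes above). The GemR siCont values rested on 6 to 13 recovered reads per library, and a pseudocount of 5 in place of 1 gave 2.63 for vehicle. In Par PXDN had 41.6, 22.7 and 23.9 with thapsigargin and 12.2, 7.42 and 15.6 with vehicle, and the Par thapsigargin libraries overlapped the GemR siSTIM1 thapsigargin libraries.

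**Figure D1:**
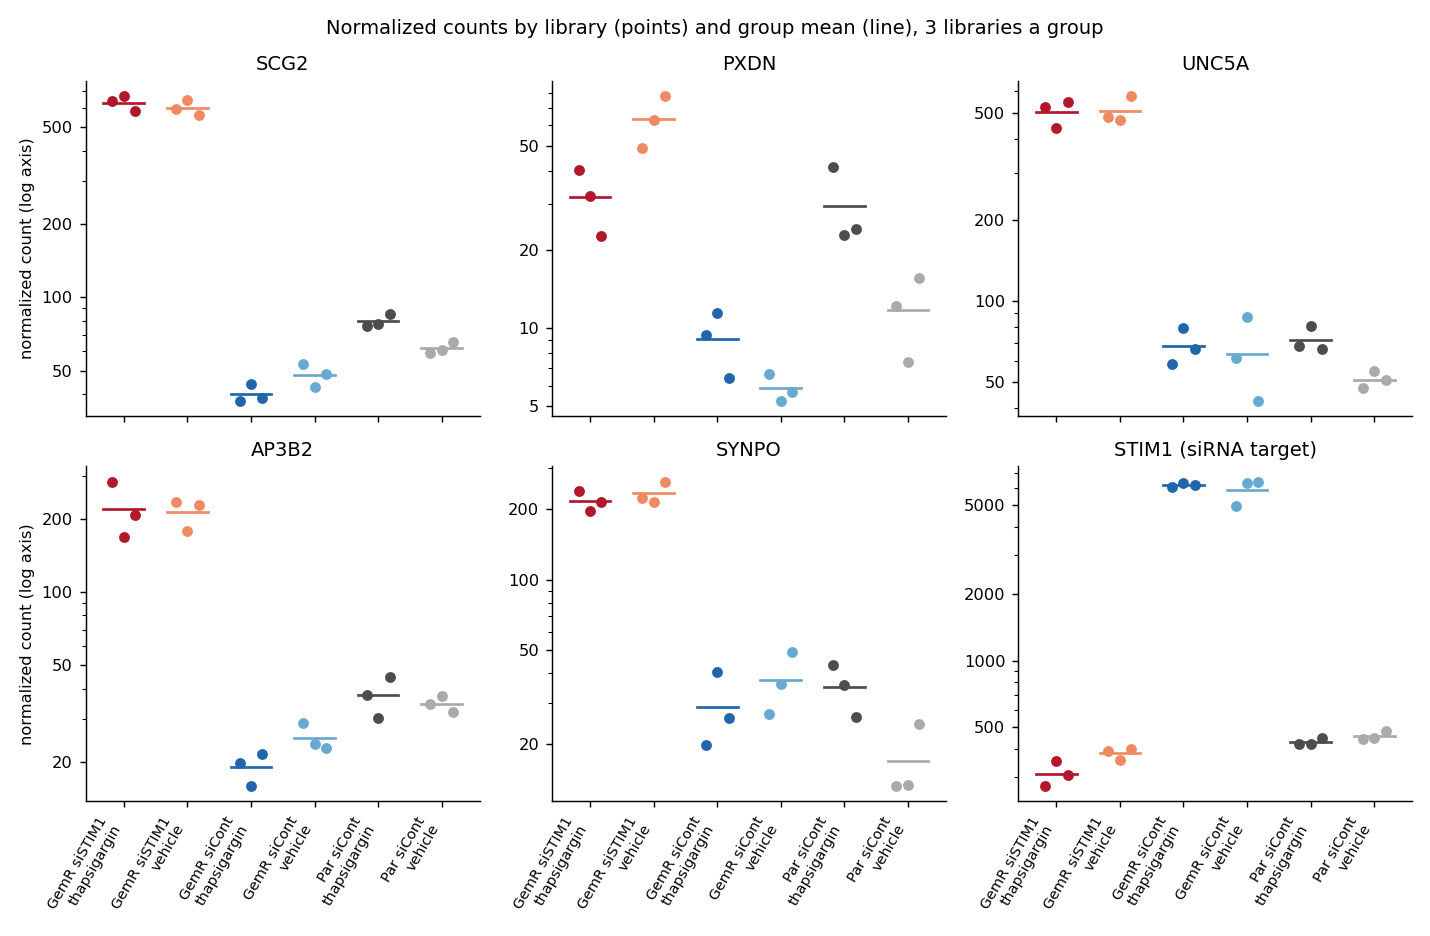
Normalized counts (log axis) of the 5 members and of STIM1 in the 6 groups; each point is a library and each line a group mean (3 libraries a group). The members are high in both GemR siSTIM1 groups, except PXDN with thapsigargin, which lies in the range of Par with thapsigargin (22.6 to 40.5 in GemR siSTIM1, 22.7 to 41.6 in Par), while STIM1 is low in GemR siSTIM1 and in Par.

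All 5 members were thus called higher in the contrast that chose them, from which nothing is read; over all tested genes 17.7% were called higher and 18.9% lower with thapsigargin, and 20.9% higher and 21.1% lower with vehicle. Per kilobase of exon, so that genes can be compared, SCG2 was the most abundant member in GemR siSTIM1 with vehicle, at a normalized count of 221 ± 15.0 per kb (SD, n = 3). There UNC5A had 117 ± 13.3, AP3B2 23.5 ± 3.36, SYNPO 22.8 ± 2.46 and PXDN 5.61 ± 1.27 per kb. In GemR siCont with vehicle SCG2 had 17.7 ± 1.94 per kb, UNC5A 14.6 ± 5.18, SYNPO 3.64 ± 1.10, AP3B2 2.76 ± 0.37 and PXDN 0.522 ± 0.065 (SD, n = 3). SCG2 and UNC5A were thus the members with the most transcript per length in both groups.

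In order of level, both siSTIM1 groups stood at the top for each member, and for SCG2, UNC5A, AP3B2 and SYNPO their libraries overlapped one another and no other group. For PXDN the order was GemR siSTIM1 vehicle, GemR siSTIM1 thapsigargin, Par thapsigargin, Par vehicle, GemR siCont thapsigargin and GemR siCont vehicle, and only the first pair of neighbours and the 2 Par groups did not overlap. Below the siSTIM1 groups, SCG2 ran from Par thapsigargin through Par vehicle and GemR siCont vehicle to GemR siCont thapsigargin, with overlap only between the GemR siCont groups. AP3B2 had the same order, with overlap only between the Par groups. For UNC5A and SYNPO all neighbouring groups below siSTIM1 overlapped.

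STIM1 was low in GemR siSTIM1 (272 to 401 normalized counts) and in Par (421 to 481), and most members differed between these groups. The groups also differ in resistance, gemcitabine and siRNA, whose parts cannot be told apart. GemR siSTIM1 exceeded Par by 2.96 ± 0.11 on the log2 scale for SCG2 with thapsigargin and by 3.26 ± 0.11 with vehicle. The same difference was 2.79 ± 0.19 and 3.29 ± 0.19 for UNC5A, 2.50 ± 0.20 and 2.59 ± 0.20 for AP3B2, and 2.62 ± 0.27 and 3.76 ± 0.27 for SYNPO. For PXDN it was 2.36 ± 0.32 with vehicle but 0.12 ± 0.32 with thapsigargin, a value whose sign turned without Par thapsigargin replicate 2 (-0.03) or GemR siSTIM1 thapsigargin replicate 1 (-0.07). These comparisons share the libraries that chose the members and are given without a test.

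GemR siCont differed less from Par than GemR siSTIM1 did, except for PXDN with thapsigargin. SCG2 was lower in GemR siCont than in Par by log2 fold changes of -0.98 ± 0.11 with thapsigargin and -0.35 ± 0.11 with vehicle. PXDN had -1.57 ± 0.32 and -0.84 ± 0.32, and AP3B2 -0.94 ± 0.20 and -0.45 ± 0.20. SYNPO differed in sign between treatments, at -0.31 ± 0.27 with thapsigargin and 1.10 ± 0.27 with vehicle. UNC5A stayed near its Par level, at -0.08 ± 0.19 and 0.26 ± 0.19, the second of which was 0.0019 without GemR siCont vehicle replicate 2 and 0.51 without replicate 3.

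**Figure D2:**
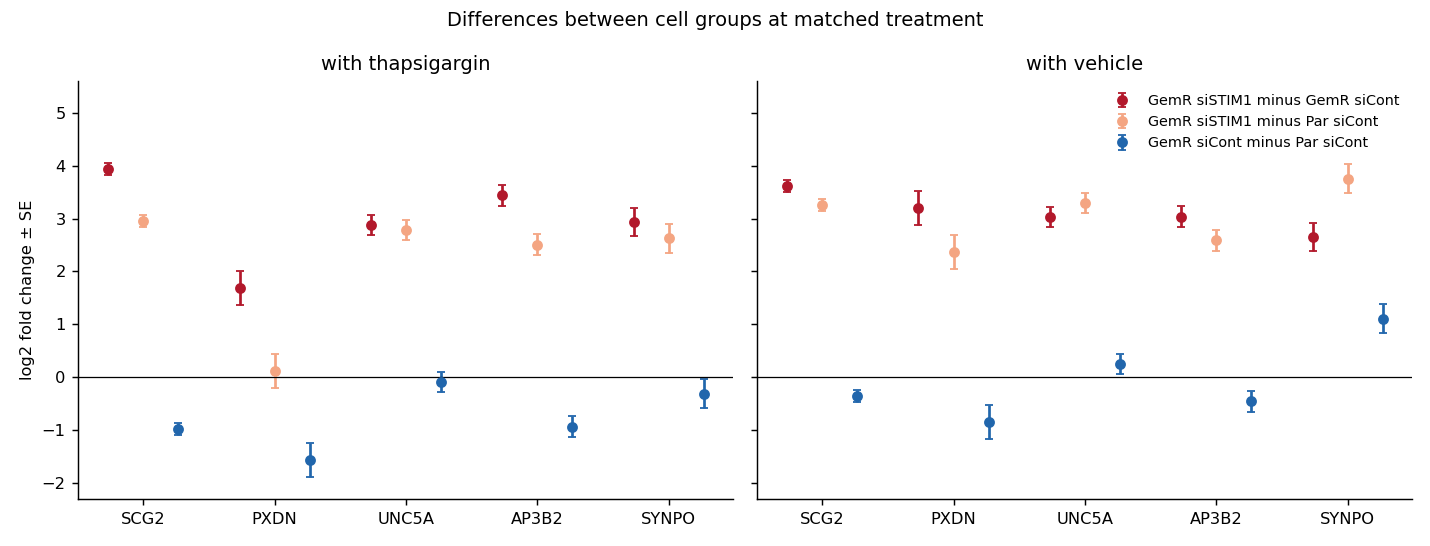
Log2 fold change ± SE of each member between GemR siSTIM1 and GemR siCont (dark red), GemR siSTIM1 and Par (light red), and GemR siCont and Par (blue), with thapsigargin (left) and vehicle (right), n = 3 libraries a group. The dark and light red points lie between 1.69 and 3.94 except PXDN against Par with thapsigargin (0.12), and the blue points lie between -1.57 and 1.10.

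The response to thapsigargin was not used by the rule and was tested with limma, with p-values adjusted over all 13096 genes of each comparison, although it shares the GemR libraries. In Par cells 3 of the 5 members rose. PXDN rose by 1.26 ± 0.32 on the log2 scale (2.39-fold, limma adjusted p = 0.0039), SYNPO by 1.03 ± 0.27 (2.04-fold, adjusted p = 0.0052) and SCG2 by 0.37 ± 0.11 (1.29-fold, adjusted p = 0.015). For each of these genes all 3 thapsigargin libraries were above all 3 vehicle libraries. UNC5A, whose libraries were separated in the same way, had 0.48 ± 0.19 (limma adjusted p = 0.0504) and AP3B2 0.10 ± 0.20 (adjusted p = 0.72). Over all genes 20.5% were called higher and 19.7% lower, and the count of members rests on 5 genes.

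The SCG2 call in Par was the least firm. Its adjusted p was 0.0538 without Par vehicle replicate 1 and 0.0614 without Par thapsigargin replicate 3, by limma, and 0.0751 by DESeq2. In the authors' deposited table SCG2 had the same log2 fold change, 0.37, with an adjusted p of 0.0852. PXDN and SYNPO had 1.29 (adjusted p = 0.00623) and 1.02 (adjusted p = 0.00559) in the authors' deposited table.

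In GemR siCont no member was called by limma, against 17.9% of genes called higher and 15.8% lower. SCG2 had a log2 fold change of -0.26 ± 0.11 (adjusted p = 0.087), which passed without GemR siCont vehicle replicate 2 (-0.34, adjusted p = 0.0413). AP3B2 had -0.39 ± 0.20 (adjusted p = 0.14), although its 3 thapsigargin libraries were all below its 3 vehicle libraries. PXDN had 0.53 ± 0.32 (adjusted p = 0.22), SYNPO -0.39 ± 0.27 (adjusted p = 0.29) and UNC5A 0.14 ± 0.19 (adjusted p = 0.61). The unadjusted 95% interval of SCG2 was -0.51 to -0.01, and those of the other 4 included 0.

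In GemR siSTIM1 only PXDN was called, and it fell, by 0.98 ± 0.32 on the log2 scale (1.98-fold lower, limma adjusted p = 0.029), against 12.5% of genes called higher and 11.9% lower. Its 3 thapsigargin libraries lay below its 3 vehicle libraries. In the authors' deposited table it had -1.01 (adjusted p = 0.0112). In the contrast that chose the members, PXDN had 2 genes above it with vehicle and 72 with thapsigargin. High GemR siSTIM1 vehicle values may thus have favoured its selection, and the same libraries are the baseline here. The response of PXDN may therefore lean toward a fall, by an amount that was not tested. The limma call was lost when GemR siSTIM1 vehicle replicate 2 (adjusted p = 0.0748) or 3 (0.125), or thapsigargin replicate 2 (0.0575) or 3 (0.142), was left out, with no filter on low values (0.063), and by DESeq2 (adjusted p = 0.0718). SCG2 had 0.07 ± 0.11, UNC5A -0.02 ± 0.19, AP3B2 0.02 ± 0.20 and SYNPO -0.10 ± 0.27, with limma adjusted p-values from 0.73 to 0.96.

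**Figure D3:**
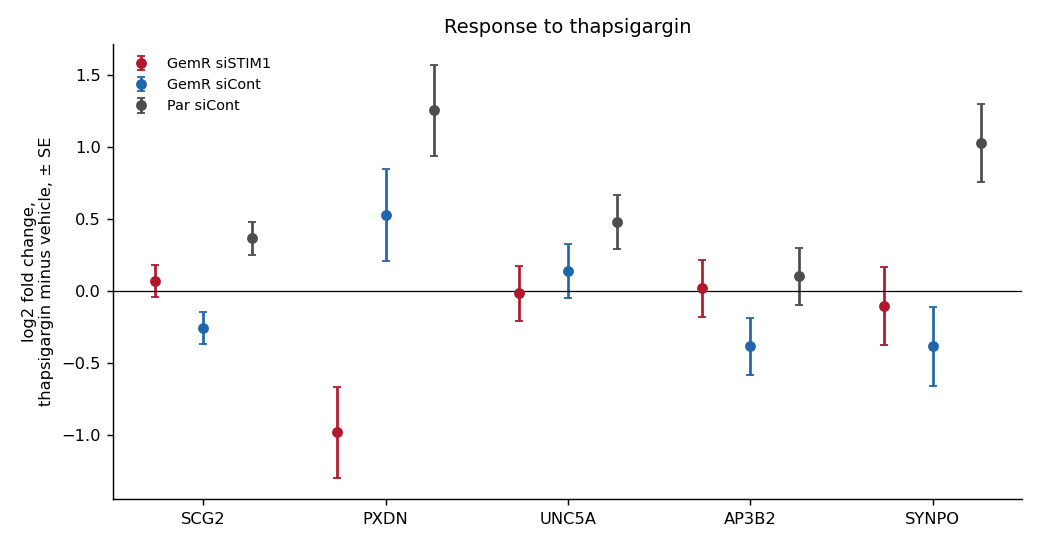
Log2 fold change ± SE, thapsigargin minus vehicle, of each member in GemR siSTIM1 (red), GemR siCont (blue) and Par (grey), n = 3 libraries a group. In Par all 5 points are above 0, from 0.10 to 1.26, while PXDN in GemR siSTIM1 is the lowest point, at -0.98.

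The differences between these responses were tested themselves. Between GemR siSTIM1 and GemR siCont no member's response differed at the threshold, against 4.41% of genes called in either direction. PXDN came nearest, with a difference of -1.51 ± 0.45 (limma adjusted p = 0.064), and it had -1.79 (adjusted p = 0.0396) with the 2 libraries that stood apart by exon length left out. Selection on high GemR siSTIM1 vehicle values may make this difference lean the same way. Between GemR siCont and Par, SCG2 (-0.62 ± 0.16, limma adjusted p = 0.011) and SYNPO (-1.42 ± 0.38, adjusted p = 0.016) were called, against 14.8% of genes called in either direction. Both genes were higher with thapsigargin in Par and had values below 0 in GemR siCont. SYNPO had an adjusted p of 0.0529 without Par thapsigargin replicate 1 and 0.0534 without GemR siCont thapsigargin replicate 1 by limma, and SCG2 had 0.0549 by edgeR and 0.0917 by DESeq2. PXDN (-0.73 ± 0.45), AP3B2 (-0.49 ± 0.28) and UNC5A (-0.34 ± 0.27) had differences of the same sign that were not called, with limma adjusted p-values of 0.33, 0.29 and 0.46.

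Across the 18 libraries the members' log2 values correlated with each other at Pearson's r from 0.752 (PXDN with SYNPO) to 0.986 (SCG2 with AP3B2). The libraries fall into the siSTIM1 and other groups by which the members were chosen, and this sets much of these values, which are given as a description. The genes most like SCG2 by the same measure were PSKH1 (r = 0.989), AP3B2, RBM22 (0.982) and CPVL (0.980). PSKH1 and XPC (0.978 and 0.975) were nearest to UNC5A, CPVL (0.987) and SCG2 to AP3B2, ABCC3 and ITGBL1 (0.968 and 0.967) to SYNPO, and TM9SF3 and C1orf226 (0.876 and 0.874) to PXDN. Those that are not members moved less than every member in the siRNA contrast with vehicle. With thapsigargin they moved less than SCG2, UNC5A, AP3B2 and SYNPO, while PSKH1 was level with PXDN (1.69 ± 0.32). PSKH1, which encodes a serine kinase, had a mean of 893 ± 26.3 normalized counts in GemR siSTIM1 with thapsigargin (SD, n = 3). In GemR siCont with thapsigargin it had 280 ± 21.3 (SD, n = 3), which gave a log2 fold change of 1.67 ± 0.09. ABCC3, an organic anion exporter, had 1.37 ± 0.08 and 1.47 ± 0.08 with thapsigargin and vehicle, and CPVL, a carboxypeptidase, 1.13 ± 0.09 and 1.11 ± 0.09.

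The tested genes that flank the members were read to see how far the differences reached along the chromosome. RBM22, a splicing factor gene 31.6 kb from SYNPO, was higher in GemR siSTIM1 than in GemR siCont by 0.67 ± 0.06 with thapsigargin and 0.56 ± 0.06 with vehicle (limma adjusted p = 2.7e-08 and 3.9e-07), and DCTN4, 49.2 kb away, by 0.42 ± 0.08 and 0.46 ± 0.08 (adjusted p = 0.00046 and 0.00019). CPEB1, a regulator of mRNA polyadenylation 10.4 kb from AP3B2, was higher by 0.74 ± 0.14 and 0.58 ± 0.14 (limma adjusted p = 0.00031 and 0.0027). AP1S3, 149 kb from SCG2, was lower, by log2 fold changes of -1.31 ± 0.11 and -0.72 ± 0.11 (adjusted p = 3.2e-08 and 6.2e-05). GPRIN1, 200.3 kb from UNC5A, was higher by 0.82 ± 0.07 and 0.61 ± 0.07 (limma adjusted p = 4.4e-08 and 2.8e-06), while UIMC1, 24.1 kb away on the other side, was not called, at 0.01 ± 0.07 and -0.11 ± 0.07 (adjusted p = 0.89 and 0.22). Of the 20 flanking genes read, 5 were higher, 1 lower and 14 not called with thapsigargin, and 6 were higher, 5 lower and 9 not called with vehicle. The genes named here were picked after their values were seen.

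Genes with related roles were read from 7 lists that leave out the members, each set beside the 17.7% of genes called higher and 18.9% lower with thapsigargin, and the 20.9% and 21.1% with vehicle. The neuronal list, of 26 genes for synaptic and axonal proteins, had the highest share of higher genes. Of its 14 tested genes, 8 were higher and 2 lower in GemR siSTIM1 with thapsigargin, with a median log2 fold change of 0.56, and 10 were higher and 2 lower with vehicle, with a median of 1.15; the medians over all genes were -0.0086 and 0.0033. Of the 13 that passed the filter on siCont libraries alone, 8 and 10 were higher. With the 2 libraries that stood apart by exon length left out, 9 were higher with thapsigargin and 10 with vehicle.

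Among these, UNC13A, which primes synaptic vesicles, averaged 1673 ± 138 normalized counts in GemR siSTIM1 and 588 ± 79.8 in GemR siCont with thapsigargin (SD, n = 3; log2 fold change 1.51 ± 0.16, limma adjusted p = 7e-07). With vehicle it averaged 1357 ± 149 in GemR siSTIM1 and 347 ± 99.4 in GemR siCont (SD, n = 3; limma adjusted p = 2.4e-08). BSN, a scaffold of the presynaptic active zone, was higher by 1.92 ± 0.26 with thapsigargin and 2.05 ± 0.26 with vehicle (limma adjusted p = 9.3e-06 and 5.3e-06). SNAP25, a SNARE of vesicle fusion, was higher by 1.38 ± 0.17 and 2.08 ± 0.17 (adjusted p = 2.9e-06 and 2e-08), and CPLX1, which binds SNARE complexes, by 1.62 ± 0.19 and 1.28 ± 0.19 (limma adjusted p = 1.3e-06 and 2.7e-05). NEFL, a neurofilament subunit, went the other way, at -1.62 ± 0.18 and -1.11 ± 0.18 (limma adjusted p = 1.1e-06 and 0.0001), so that the list did not move as a whole. Of 7 neuroendocrine markers, CHGA averaged at most 2.05 normalized counts in any group, INSM1 and NEUROD1 averaged at most 0.901, and SYP averaged 21.1 and 16.0 in GemR siSTIM1 with thapsigargin and vehicle, and 2.64 to 3.42 elsewhere. The summed neuroendocrine level, mostly ENO2, was 97.6 to 151 in GemR siSTIM1 libraries, 124 to 177 in GemR siCont and 178 to 248 in Par. The summed Schwann and neuronal markers, mostly SNAP25, were 157 to 204 in GemR siSTIM1, 34.5 to 79.0 in GemR siCont and 66.8 to 90.5 in Par; their part in the results was not tested.

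For SCG2, the list of dense-core granule genes held 22, of which 13 were tested. With thapsigargin 5 were higher and 0 lower, and with vehicle 6 were higher and 1 lower. Of the 12 that passed the filter on siCont libraries alone, 4 were higher and 0 lower with thapsigargin, and 5 higher and 1 lower with vehicle. Without GemR siSTIM1 vehicle replicate 3, 3 were higher and 2 lower with vehicle, and without GemR siCont or siSTIM1 thapsigargin replicate 3, 3 were higher with thapsigargin. PAM, which amidates granule peptides, averaged 1251 ± 82.3 normalized counts in GemR siSTIM1 and 884 ± 10.5 in GemR siCont with thapsigargin (SD, n = 3), a log2 fold change of 0.50 ± 0.08 (limma adjusted p = 0.0001), and 0.39 ± 0.08 with vehicle (limma adjusted p = 0.001). RAB27A, a GTPase of granule docking, had 0.27 ± 0.10 and 0.43 ± 0.10 (adjusted p = 0.034 and 0.0015), and with thapsigargin its call was lost without GemR siSTIM1 replicate 3 (0.145), 1 other siSTIM1 or 2 siCont replicates (0.0627 to 0.0999). CADPS2, which primes granules, had 0.38 ± 0.16 and 0.45 ± 0.16 (limma adjusted p = 0.066 and 0.027). Its thapsigargin value passed without replicate 1 of siCont (0.0321) or of siSTIM1 (0.0333), without both libraries that stood apart (0.013) and after median centring (0.0474), and the vehicle call was lost without GemR siCont replicate 1 (0.0714) or siSTIM1 replicate 3 (0.112), after quantile normalization (0.0687), by edgeR (0.136) and by DESeq2 (adjusted p = 0.12). PCSK1N, an inhibitor of the prohormone convertase PCSK1, had 0.38 ± 0.13 and 0.12 ± 0.13 (limma adjusted p = 0.028 and 0.48), and lost its call without GemR siCont thapsigargin replicate 1 or 3 or any siSTIM1 thapsigargin replicate other than replicate 2 (0.083 to 0.123), and without both libraries that stood apart (0.0962). Larger differences stood in called genes of the list with group means under 50, picked here after their values were seen. SYT7, a calcium sensor of exocytosis, had 1.42 ± 0.32 and 1.53 ± 0.32 (limma adjusted p = 0.002 and 0.0011), and PCSK1, which cleaves prohormones, 1.61 ± 0.44 and 1.36 ± 0.44 (adjusted p = 0.0074 and 0.019). Their GemR siCont means with thapsigargin and vehicle were 8.48 and 8.07 for SYT7, and 9.58 and 10.1 for PCSK1. By the counts above, 1 of this pair passed the filter only through the GemR siSTIM1 libraries, so their p-values are read as description. The vehicle call of PCSK1 was lost with a pseudocount of 0.5 (0.0578) and without siCont replicate 3 (0.0519) or siSTIM1 replicate 2 (0.0695) or 3 (0.0528). VGF had 0.51 ± 0.40 and 1.06 ± 0.40 (limma adjusted p = 0.35 and 0.043). Its vehicle call was lost with no filter (0.0795), after quantile normalization (0.0847), without trend (0.0515) and with only the libraries compared (0.0931). It was also lost by edgeR (0.0953), by DESeq2 (0.082), and without any single GemR vehicle library other than siCont replicate 1 (0.0605 to 0.163).

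For UNC5A, 7 of 15 netrin guidance genes were tested, with 2 higher and 3 lower with thapsigargin and 3 higher and 2 lower with vehicle. Leaving out single libraries moved the thapsigargin counts to between 1 and 3 higher and between 1 and 3 lower, and the vehicle count of lower genes to between 1 and 2. The related receptor UNC5B was lower in GemR siSTIM1, at 1209 ± 34.9 normalized counts with thapsigargin against 2294 ± 80.1 in GemR siCont (SD, n = 3), a log2 fold change of -0.92 ± 0.10 (limma adjusted p = 8.9e-07), and -0.76 ± 0.10 with vehicle (adjusted p = 1.1e-05). UNC5C, with low means and picked after its values were seen, was also lower, at -1.78 ± 0.50 and -1.28 ± 0.50 (limma adjusted p = 0.009 and 0.047). Its thapsigargin call was lost without GemR siCont replicate 1 (0.0659) or siSTIM1 replicate 3 (0.0562), and its vehicle call with a pseudocount of 0.5 (0.0556), among other settings. The ligand gene NTN1 was higher, by 0.77 ± 0.23 and 1.39 ± 0.23 (limma adjusted p = 0.012 and 0.0001), with an adjusted p of 0.0555 for thapsigargin without GemR siCont replicate 2. NTN4, a laminin-binding netrin, was higher by 0.49 ± 0.10 and 0.54 ± 0.10 (limma adjusted p = 0.00093 and 0.00042). NEO1, a receptor for netrins and repulsive guidance molecules, had 0.25 ± 0.15 (adjusted p = 0.2; 0.40 and adjusted p = 0.0471 without siSTIM1 thapsigargin replicate 1, and 0.000188 without both libraries that stood apart) and 0.63 ± 0.15 (limma adjusted p = 0.0023).

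For AP3B2, 15 of 16 genes of the AP-3 and BLOC-1 complexes were tested: 1 was higher and 1 lower with thapsigargin, and 2 higher and 5 lower with vehicle. Leaving out the 2 libraries that stood apart by exon length gave 5 higher and 3 lower with thapsigargin and 1 higher and 4 lower with vehicle. BLOC1S2 was lower, by -0.92 ± 0.12 and -1.23 ± 0.12 on the log2 scale (limma adjusted p = 3.6e-06 and 1.4e-07). AP3S1, the small subunit of AP-3, had -0.25 ± 0.10 and -0.60 ± 0.10 (limma adjusted p = 0.071 and 0.00017). Its thapsigargin value passed, at -0.26 (adjusted p = 0.00892), without the 2 libraries that stood apart, and also with only the libraries compared (0.0316) and with the replicate block (0.0472). DTNBP1, which encodes dysbindin, had 0.50 ± 0.13 and -0.09 ± 0.13 (adjusted p = 0.0055 and 0.61), and BLOC1S4 0.21 ± 0.13 and 0.68 ± 0.13 (limma adjusted p = 0.25 and 0.00061).

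For PXDN, 18 of 26 basement membrane and peroxidase genes were tested, and their counts differed between treatments: 4 higher and 3 lower with thapsigargin, and 9 higher and 0 lower with vehicle. With vehicle these became 7 and 2 when the 2 libraries that stood apart by exon length were left out. LAMA4, a laminin alpha chain, averaged 796 ± 70.9 normalized counts in GemR siSTIM1 and 257 ± 16.5 in GemR siCont with thapsigargin (SD, n = 3; 1.63 ± 0.11 on the log2 scale, limma adjusted p = 7.2e-10) and differed by 1.83 ± 0.11 with vehicle (adjusted p = 2.4e-10). COL4A2, a chain of the collagen IV that peroxidasin crosslinks, was higher by 1.11 ± 0.09 and 1.23 ± 0.09 (limma adjusted p = 1.4e-08 and 4.9e-09), and LAMB2, a laminin beta chain, by 0.58 ± 0.09 and 0.69 ± 0.09 (adjusted p = 3.3e-05 and 6.1e-06). The other tested collagen IV chains did not all follow. COL4A1 had 0.04 ± 0.12 and 0.31 ± 0.12 (limma adjusted p = 0.81 and 0.042). Its vehicle call was lost in several settings, among them DESeq2 (0.128), edgeR (0.155) and limma without GemR siCont replicate 1 (0.29). COL4A6 had 0.20 ± 0.095 and 0.41 ± 0.095 (limma adjusted p = 0.11 and 0.0023), and COL4A5 -0.41 ± 0.10 and -0.12 ± 0.10 (0.0026 and 0.32). Without both libraries that stood apart, COL4A6 passed with thapsigargin (0.25, limma adjusted p = 0.00354) and COL4A5 with vehicle (-0.27, limma adjusted p = 0.00178). COL4A4 had -0.62 ± 0.33 and -0.44 ± 0.33 (limma adjusted p = 0.15 and 0.3). HSPG2, the proteoglycan perlecan, had 0.21 ± 0.30 (limma adjusted p = 0.63) and 1.19 ± 0.30 (adjusted p = 0.004), and with vehicle DESeq2 gave an adjusted p of 0.062.

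For SYNPO, 11 of 18 synaptopodin and actin genes were tested, with 3 higher and 2 lower in both treatments, and 6 higher and 2 lower with thapsigargin when the 2 libraries that stood apart by exon length were left out. MAGI1, a scaffold protein, had 0.62 ± 0.21 and 1.13 ± 0.21 (limma adjusted p = 0.028 and 0.00038), and its thapsigargin call was lost without GemR siCont replicate 1 or 2 or siSTIM1 replicate 2 or 3 (0.0537 to 0.154). PODXL, the podocyte sialoprotein podocalyxin, had 0.32 ± 0.13 and 0.68 ± 0.13 (limma adjusted p = 0.063 and 0.00058; with thapsigargin 0.0384 after median centring, 0.0332 after quantile normalization, 0.0498 with only the libraries compared, 0.0461 by DESeq2, 0.0169 without siSTIM1 replicate 1 and 0.000579 without both libraries that stood apart). TPM1, a tropomyosin, was lower, by -0.46 ± 0.09 and -0.55 ± 0.09 (adjusted p = 0.00074 and 0.00016). CD2AP, a podocyte adaptor that binds actin regulators, was also lower, by -0.55 ± 0.10 and -0.32 ± 0.10 (limma adjusted p = 0.00022 and 0.014), with the vehicle call lost without GemR siCont replicate 2 or 3 or siSTIM1 replicate 2 (0.0555 to 0.0639). TPM2 had 0.50 ± 0.12 and 0.19 ± 0.12 (limma adjusted p = 0.0024 and 0.2), and with vehicle 0.37 (adjusted p = 0.00203) without GemR siCont replicate 1 and 0.000201 without both libraries that stood apart.

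REST encodes a repressor that keeps neuronal genes low in other cells, and its complex formed the last list. Of 8 tested genes, 1 was higher and 2 lower in each treatment. REST averaged 418 ± 54.4 normalized counts in GemR siSTIM1 and 703 ± 45.9 in GemR siCont with thapsigargin (SD, n = 3), a log2 fold change of -0.76 ± 0.12 (limma adjusted p = 8.8e-05). With vehicle it averaged 536 ± 77.1 in GemR siSTIM1 and 716 ± 132 in GemR siCont (-0.41 ± 0.12, limma adjusted p = 0.013), a call lost without GemR siCont replicate 3 (0.0672) or siSTIM1 replicate 2 (0.0606) or 3 (0.0581). Its corepressor gene RCOR1 had -0.43 ± 0.10 and 0.19 ± 0.10 (limma adjusted p = 0.0028 and 0.15), and the histone deacetylase gene HDAC2 -0.05 ± 0.07 and -0.24 ± 0.07 (adjusted p = 0.61 and 0.011; 0.0594 without GemR siCont vehicle replicate 1). SIN3A, another corepressor, had 0.15 ± 0.11 and 0.38 ± 0.11 (limma adjusted p = 0.27 and 0.007; with thapsigargin 0.24 and adjusted p = 0.00381 without the 2 libraries that stood apart, and with vehicle 0.0599 with only the libraries compared), and RCOR3 0.30 ± 0.09 and 0.05 ± 0.09 (adjusted p = 0.014 and 0.7; with thapsigargin 0.054 without GemR siCont replicate 3 and 0.0527 without siSTIM1 replicate 2). A link between REST and the members was not tested.

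**Figure D4:**
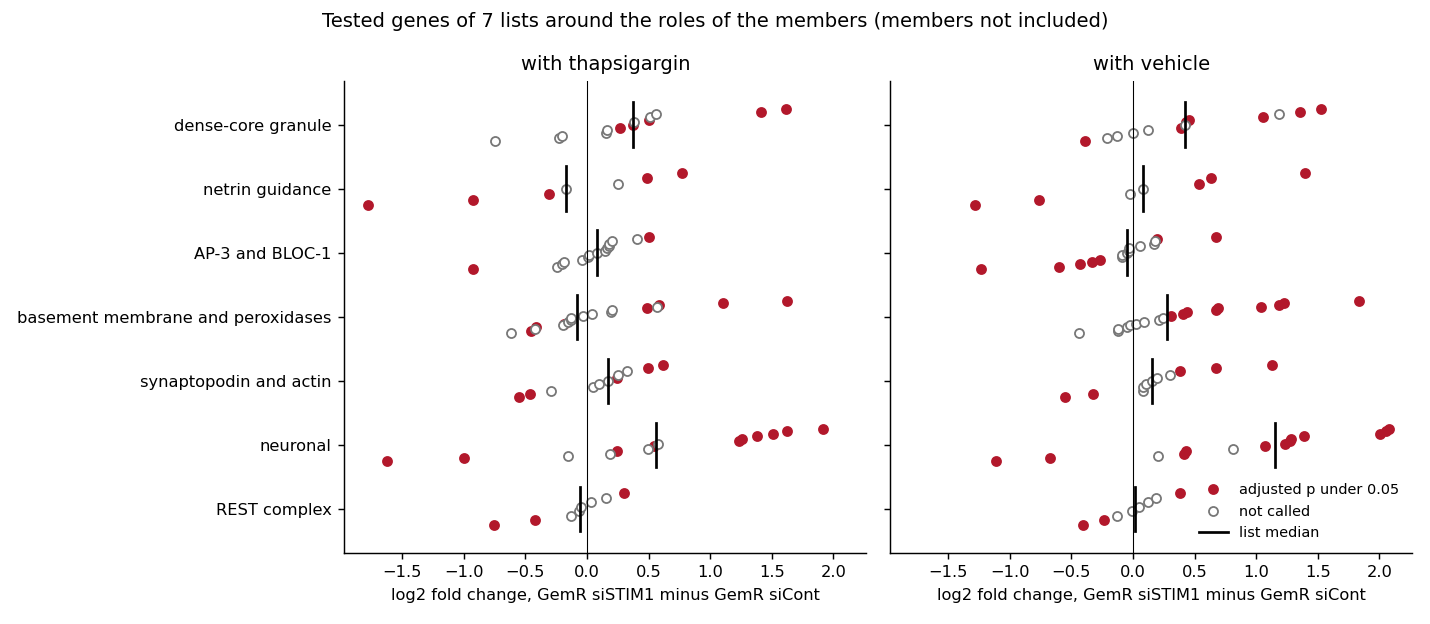
Log2 fold change between GemR siSTIM1 and GemR siCont of the tested genes of 7 lists, with thapsigargin (left) and vehicle (right); red points have an adjusted p under 0.05, open points do not, and black lines are list medians. The neuronal list has the median farthest from 0 in both panels (0.56 and 1.15), and with vehicle no gene of the 7 lists reaches the 2.65 of SYNPO, the smallest of the members' differences with vehicle.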

How the data were processed

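Polyadenylated RNA was sequenced in 18 libraries. Per the labels' protocols, cells were lysed in QIAzol and 500 ng of RNA went into TruSeq RNA v2 libraries, a kit that does not mark strand. Per the submitters' processing notes, STAR 2.6.0c, HTSeq 0.11.1, DESeq2 and the hg38 genome were used; the sources used here name no annotation.

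The authors deposited a table of normalized counts, used here as a signal: counts of reads scaled by a factor per library, since in each library 100% of the positive values came to whole multiples of 1 step (tolerance 0.01). Further deposited tables hold the authors' comparisons, with columns that per the file headers are log2 fold changes, standard errors and adjusted p-values. No column of per-sample values was left unused.

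For the tests, deposited values were taken as log2(normalized count + 1) and fitted with limma 3.58.1 (trend, R 4.3.3) with 1 mean per group over all 18 libraries (12 residual degrees of freedom) for 13096 genes with a mean of at least 10. This scale understates changes of low genes. Tests were two-sided, Benjamini-Hochberg adjustment covered all genes tested in a comparison, and calls were made at an adjusted p under 0.05. The code was tested on simulated data. The 5 members and the gene lists were chosen with earlier results of these data known. Besides the members and STIM1, the named genes were those most correlated with a member (4 for SCG2, 2 for each other member). In each list and treatment, up to 3 called genes with the largest change and a group mean of at least 50 were also named. The flanking genes named were picked, after their values were seen, from the 2 nearest on each side of a member. Only tested protein-coding genes with a unique symbol that did not overlap the member were taken as flanking. A few further list genes were named after their values were seen. Positions and exon lengths came from GENCODE 29. Count tests (edgeR 4.0.16, quasi-likelihood; DESeq2 1.42.0) ran on reads recovered from 17 libraries: the step of GemR siSTIM1 vehicle replicate 3 was too near 1 to check.

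Other settings tried were a pseudocount of 0.5 or 5, a minimum mean of 50 or none, quantile normalization, median centring, limma with no trend or with a robust prior, fits restricted to the groups compared, a block for the replicate number, omission of each library, joint omission of the 2 libraries with the steepest fall with exon length, and both count tests. The counts of called list genes under these alternatives were added after the data were seen. Figures used matplotlib 3.10.9 (Python 3.11.15, pandas 2.3.3).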

Additional observations from a re-analysis of the deposited data

Results flagged for a closer look

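The thapsigargin response of SCG2 differed between GemR siCont and Par by -0.62 on the log2 scale (limma adjusted p = 0.011): the 3 thapsigargin libraries lay above the 3 vehicle libraries in Par, and the groups overlapped in GemR siCont, where the response was not called. The response of SYNPO differed between the same groups by -1.42 (limma adjusted p = 0.016), with the same separation in Par and overlap in GemR siCont. Both tests share the GemR siCont libraries with the contrast that chose the members, and 14.8% of all genes were called in this comparison.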

How the results depend on the processing

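No called response of a member changed sign under the settings run. Leaving out single libraries, the members called numbered 0 to 1 in GemR siCont, 0 to 1 in GemR siSTIM1 and 1 to 2 in the difference between GemR siCont and Par. Over all genes, calls ranged from 1529 to 2943 in that difference (1938 with all libraries; 2943 without GemR siCont vehicle replicate 1) and from 323 to 1216 in the difference between GemR siSTIM1 and GemR siCont (577 with all libraries; 1216 without GemR siCont vehicle replicate 3, and 323, 334, 338, 341 and 372 without siSTIM1 vehicle replicate 1, siCont thapsigargin replicates 1 and 3, siSTIM1 vehicle replicate 3 and siSTIM1 thapsigargin replicate 1).

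PXDN in GemR siSTIM1 was lost (0 members called) with no filter and by DESeq2, and was not tested at a minimum mean of 50 (0 members). SCG2 in GemR siCont was called (1 member) after quantile normalization (-0.35, adjusted p = 0.0281) and without trend (adjusted p = 0.0432). Between GemR siCont and Par, 0 members were called with only the libraries compared (SCG2 adjusted p = 0.0673, SYNPO 0.0582) and 1 by edgeR and by DESeq2. With the 2 libraries of steepest exon-length fall left out, 1 member (PXDN) was called in the siSTIM1 minus siCont difference, and 3852 genes were called between GemR siCont and Par. With only the libraries compared, 2843 genes were called for GemR siCont (4402 over all libraries), 317 for the siSTIM1 minus siCont difference and 3294 for siSTIM1 against siCont with vehicle (5496 over all libraries), and SCG2 in Par had an adjusted p of 0.0695. The vehicle calls of HSPG2, CD2AP, REST, SIN3A and HDAC2 were also lost with only the libraries compared (limma adjusted p from 0.0599 to 0.109). EdgeR called 346 genes in the siSTIM1 minus siCont difference. UNC5A in Par passed at a minimum mean of 50 (adjusted p = 0.0483), with a robust prior (0.0495) and with only the libraries compared (0.0302). The cause of these shifts was not tested.

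No pair of groups set directly against each other had all 3 same-number correlations of deviations above 0.1. GemR siSTIM1 thapsigargin and GemR siCont vehicle, which enter the same difference of responses, did (0.491, 0.14 and 0.288), but the other group pairs in that difference did not, so the replicate numbers are not taken to pair the libraries. With the replicate block UNC5A in Par was called (0.48, adjusted p = 0.0442), which made 4 members there, and no other member's call changed; 5472 genes were called in Par (5253 without it). In PXDN, with 5 to 16 reads in the GemR siCont and Par vehicle libraries, depth limits what can be detected.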
